A study of Mus musculus with 8 samples.

Results

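Vmn2r3, a vomeronasal receptor gene, was read almost only in TAZG197V hearts, and Gm34302, a gene for a small muscle membrane peptide lying nearby on mouse chromosome 3, was nearly lost from them. These and the other chromosome 3 receptor genes Vmn2r1, Vmn2r2, Vmn2r4, Vmn2r5, Vmn2r6 and Vmn2r7 make up the 8 genes described here, out of 55471 gene rows. The members were selected on their measured expression in these hearts, that is, on the difference in counts between TAZG197V and WT: Vmn2r3 as a gene that rose, Gm34302 as one that fell less than 1 Mb away, and the remaining Vmn2r genes as their receptor neighbours. The genotype difference of these 8 genes is therefore a description and carries no test.

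RNA was sequenced from heart tissue of 4 TAZG197V mice and 4 wild-type (WT) littermates, 14 weeks old, untreated. TAZG197V mice carry a glycine-to-valine exchange in Taz, the X-linked gene for tafazzin, a mitochondrial acyltransferase that remodels cardiolipin; the mutant animals were hemizygous males. The allele was made by CRISPR/Cas9 in C57BL/6N zygotes, and founders were crossed to C57BL6/J for 2 generations. The background of the sequenced animals is not stated beyond this. A small piece of heart was minced per animal, without a stated chamber.

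Vomeronasal type 2 receptors are class C G protein-coupled receptors with a long extracellular domain. They are known from sensory neurons of the basal layer of the vomeronasal organ, where they detect peptide and protein pheromones and signal through the G protein subunit Gαo (Gnao1) and the channel Trpc2. Vmn2r1 to Vmn2r7 form a branch of the family whose members are found in many basal neurons together with a further receptor. Gm34302 is listed by RefSeq as Strit1, with DWORF as a synonym. Its peptide sits in the sarcoplasmic reticulum membrane, where it raises the activity of the calcium pump SERCA by displacing the inhibitor phospholamban (Pln).

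Gm34302 (ENSMUSG00000103476) lay at chr3:63481112-63483879 on the minus strand of mm10/GRCm38, with 3 exons of 243 bases in all. Its coding sequence had 105 bases in 2 blocks, chr3:63483815-63483827 and chr3:63481290-63481381. It is shown whole because it is so short, with the start and stop codons in capitals, from the GENCODE M21 transcript.

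Gm34302 coding sequence: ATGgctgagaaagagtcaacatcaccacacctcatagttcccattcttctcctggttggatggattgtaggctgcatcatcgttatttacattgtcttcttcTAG

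It holds 34 codons before the stop codon. Reads were 50 bases long, and none of the 194 different 50-base stretches of Gm34302 occurred in a transcript of another gene.

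Vmn2r3 (ENSMUSG00000091572) lay at chr3:64257215-64289709 on the minus strand, 773 kb above Gm34302, and the 8 genes together spanned 1364 kb. Vmn2r3 had 9 annotated transcripts. Of these, 3 were coding, 4 were marked for nonsense-mediated decay and 2 retained introns, and counts per gene do not tell them apart. The receptor paralogues resemble each other, which bears on where a short read can be placed. Coding sequences of Vmn2r3 and the other 6 receptors were 84.4 to 89.7% identical, whereas pairs among Vmn2r4 to Vmn2r7 ran from 88.1 to 98.8%. In that group the pairs with Vmn2r5 were the lowest, at 88.1 to 88.5%, within the range of Vmn2r3. A 50-base coding stretch, as long as a read, is shown as an example, and its differences do not follow the order of these identities. It corresponds to coding positions 1128 to 1177 of Vmn2r3 (chr3:64275082-64275131, minus strand), and capitals mark bases that differ from Vmn2r3.

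Vmn2r3: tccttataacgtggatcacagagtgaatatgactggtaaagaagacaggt
Vmn2r1: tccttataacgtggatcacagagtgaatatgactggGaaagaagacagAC
Vmn2r2, Vmn2r5 and Vmn2r7: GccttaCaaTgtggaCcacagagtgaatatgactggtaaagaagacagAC
Vmn2r4: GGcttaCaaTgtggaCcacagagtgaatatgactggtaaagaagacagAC
Vmn2r6: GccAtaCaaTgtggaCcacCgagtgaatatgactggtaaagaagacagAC

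Here Vmn2r1 differed from Vmn2r3 at 3 bases, the identical stretches of Vmn2r2, Vmn2r5 and Vmn2r7 at 6, Vmn2r4 at 7 and Vmn2r6 at 8. Over the whole coding sequence Vmn2r1 was the least like Vmn2r3, at 84.4%, whereas Vmn2r6 was 89.6% identical to it. The stretches lay on the minus strand at chr3:64134122-64134171 (Vmn2r2), chr3:64406373-64406422 (Vmn2r4), chr3:64503966-64504015 (Vmn2r5), chr3:64556226-64556275 (Vmn2r6) and chr3:64715979-64716028 (Vmn2r7), and on the plus strand at chr3:64090055-64090104 (Vmn2r1). Alignment allowed up to 2 mismatches.

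Over all transcripts, 3.09% of the 17781 different 50-base stretches of Vmn2r3 occurred in a transcript of another gene. The share was 15.4% for Vmn2r1, 16.0% for Vmn2r2 and 22.6% for Vmn2r4. It was 43.6% for Vmn2r5, 49.0% for Vmn2r6 and 52.4% for Vmn2r7, and 45.2% of the stretches of Vmn2r6 were also in Vmn2r7. Vmn2r3 and Gm34302 were thus the members with the fewest shared stretches.

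**Figure D1:**
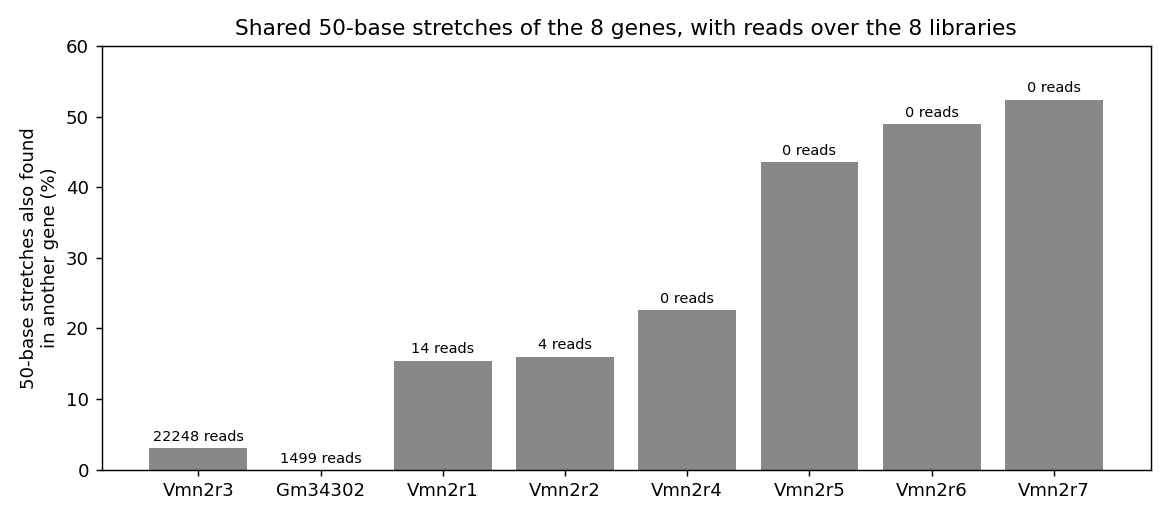
Percentage of the different 50-base stretches of each gene (bars, linear axis from 0) that also occur in a transcript of another gene in GENCODE M21; the reads counted for the gene over the 8 libraries stand above each bar. Vmn2r3 (3.09%) and Gm34302 (0) have the lowest bars, and Vmn2r5, Vmn2r6 and Vmn2r7, all with 0 reads, the highest.

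The 8 libraries held 23055689 to 36301031 counted reads. WT 2 stood apart by atrial markers, WT 4 by red cell and brain markers, and TAZG197V 4 by brain markers. Of 15084 genes tested, 5043 (33.4%) were called between the genotypes, 2783 (18.5%) higher and 2260 (15.0%) lower in TAZG197V hearts. A call required an adjusted p below 0.05 in edgeR's quasi-likelihood test, a change of more than 15% and a mean scaled count of at least 50. Taz itself was read at 60.9 ± 2.36 CPM (counts scaled by TMM-adjusted library sizes; SD, n = 4) in WT and 47.3 ± 2.60 CPM in TAZG197V hearts (log2 fold change −0.37, edgeR adjusted p = 0.00126), which does not check a point exchange.

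For Vmn2r3, the counts were 1, 9, 26 and 2 in WT 1 to 4. In TAZG197V 1 to 4 they were 5309, 7514, 5813 and 3574. In CPM the WT hearts ran from 0.0338 (WT 1) to 1.01 (WT 3) and the TAZG197V hearts from 131 (TAZG197V 4) to 203 (TAZG197V 2). No TAZG197V heart came near a WT heart: the lowest mutant value was 130 times the highest WT value. The WT mean was 0.345 ± 0.452 CPM and the mutant mean 179 ± 32.3 CPM (SD over 4 hearts each). The groups did not overlap, which was also true of 33.2% of all tested genes, and since the gene was chosen for this contrast nothing is read from it.

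The fitted log2 fold change of Vmn2r3 was 8.95 (SE 0.389), the fourth from the top (rank 4 of 15084). Among called genes, Ostn, the gene of the peptide osteocrin, was next above it at 9.26 and Adm2, the gene of adrenomedullin 2, next below at 7.97. The size rested on few WT reads. Leaving out WT 3, which held 26 of them, raised the log2 fold change to 10.599, and leaving out WT 1 lowered it to 8.40. Within sequencing lane 7, with 2 libraries per genotype, mean CPM was 0.141 in WT and 198 in TAZG197V. Within lane 8 it was 0.549 and 159.

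On a scale of CPM per kb of exon, Vmn2r3 had a level of 10.26 ± 1.85 in TAZG197V hearts, above 79.1% of the tested genes. In WT hearts the level was 0.0198 ± 0.0260 CPM per kb, above 0.0995% of them. These values divide by 17411 bases of annotated exon, which include retained introns. Divided by the longest coding transcript, of 5149 bases, the mutant mean was 34.7 CPM per kb. A receptor gene of sensory neurons thus read in mutant hearts at a level above most tested heart genes by the first measure.

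Gm34302 ran the other way. Its counts were 513, 450, 339 and 142 in WT 1 to 4, and 16, 15, 14 and 10 in TAZG197V 1 to 4. That was 17.4, 12.4, 13.2 and 6.34 CPM in WT against 0.581, 0.405, 0.452 and 0.367 CPM in TAZG197V hearts. Every WT heart lay above every TAZG197V heart, and WT 4 was the lowest of its group. Such a lack of overlap was also true of 33.2% of all tested genes, and since Gm34302 was chosen for this contrast nothing is read from it. The WT mean was 12.3 ± 4.54 CPM and the mutant mean 0.451 ± 0.0935 CPM (SD over 4 hearts each), 27.3 times lower.

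The fitted log2 fold change of Gm34302 was −4.75 (SE 0.261), the lowest of all 15084 tested genes, with Plekhh1 (−4.62) next. Over the libraries left out one at a time it ran from −4.97 to −4.52. The ratio of means was 30.1 within lane 7 and 23.8 within lane 8. Per kb of exon, the WT level of 50.6 ± 18.7 CPM was above 96.2% of tested genes, and the TAZG197V level of 1.86 ± 0.385 was above 39.8%. By CPM without regard to length, it was above 48.5% of tested genes in WT and 4.16% in TAZG197V hearts. The short transcript offers few positions to a 50-base read, so levels per kb are less certain for Gm34302 than for longer genes.

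**Figure D2:**
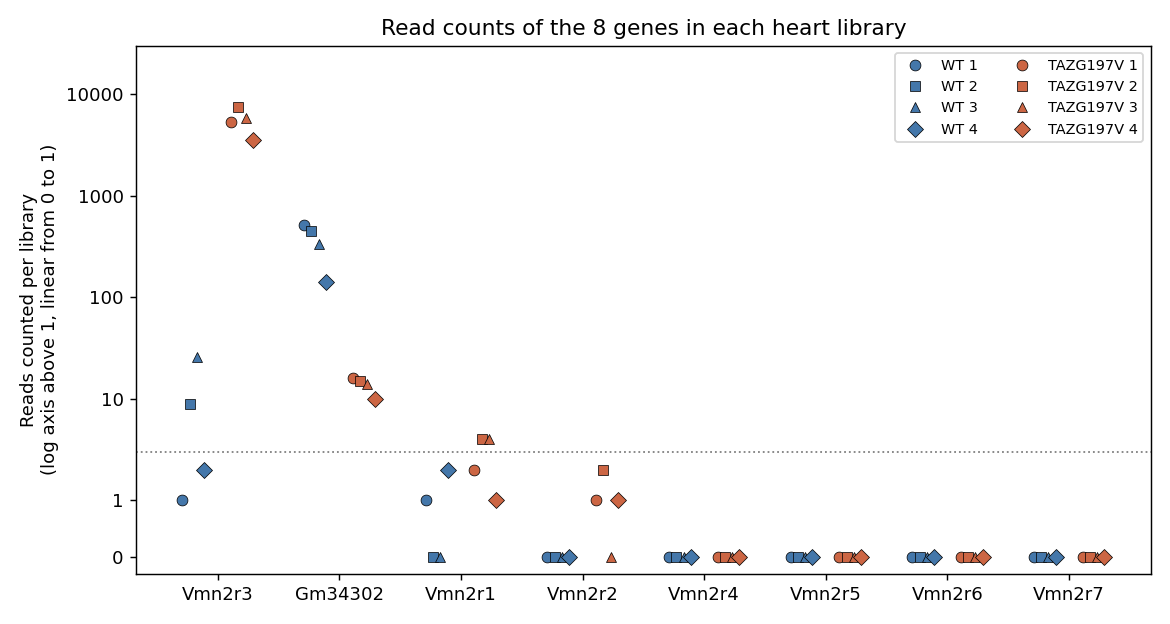
Reads counted for each of the 8 genes in each library (WT blue, TAZG197V orange, one marker shape per replicate number; axis logarithmic above 1 and linear from 0 to 1, dotted line at 3 reads). Vmn2r3 runs from 1 to 26 reads in WT and from 3574 to 7514 in TAZG197V, Gm34302 from 142 to 513 and from 10 to 16, and no other member exceeds 4 reads in a library.

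The other receptors of the cluster were barely read or not read. Vmn2r1 (chr3:64081547-64109484, plus strand) had counts of 1, 0, 0 and 2 in WT and 2, 4, 4 and 1 in TAZG197V hearts. Vmn2r2 (chr3:64115278-64141928, minus strand) had none in WT and 1, 2, 0 and 1 in TAZG197V. These groups overlapped, and neither gene passed the filter on low counts. Vmn2r4 (chr3:64383044-64415368), Vmn2r5 (chr3:64488609-64509842), Vmn2r6 (chr3:64531310-64565830) and Vmn2r7 (chr3:64685044-64844765), all on the minus strand, had 0 counts in every library. A count of 0 allows up to 3 reads, which was 0.0810 to 0.134 CPM per library, for counting error only. How reads that fit several genes were counted is not given in the sources used here, and the last 3 of these genes share the most stretches. Stretches found in no other gene numbered 2824 for Vmn2r5, 4836 for Vmn2r6 and 4529 for Vmn2r7, so reads from them could still have been counted. A level under the floor was not detectable here. Of the 8 members, 2 passed the filter, Vmn2r3 and Gm34302, each through the genotype in which it was high. Among the receptors in TAZG197V hearts, Vmn2r3 had the highest level, and the other 6, at 0 to 4 reads per library, were not told apart in order.

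Across the genome, 122 genes named Vmn2r were in the files, and 20 of them had any count. Vmn2r3 took 2.86 to 48.1% of the reads of these genes in WT hearts and 99.0 to 99.3% in TAZG197V hearts. The rest of the Vmn2r genes together held 28 to 70 reads per library. Vmn2r57, on chromosome 7, was the only other one tested. It had 21, 30, 20 and 15 counts in WT and 42, 59, 33 and 27 in TAZG197V hearts, a log2 fold change of 0.81 (SE 0.227, edgeR adjusted p = 0.0240) under the minimum mean count, and 41.5% of its exon bases overlap another gene's. Vmn2r97 had 41 counts in WT 4 and 1 to 5 in each other library. Of 208 Vmn1r genes, the other vomeronasal receptor class, 15 had any count.

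Genes known to act with these receptors were mostly at or near 0 in all hearts, or were read in both genotypes. Trpc2, the channel that carries the sensory current, was listed at 0 in all 8 libraries, but 100% of its exon bases overlap another gene's, so that this 0 does not show its level. Also at 0 in every library were 7 H2-M genes, without such overlap, which encode non-classical class I molecules found with type 2 receptors. Omp, a marker of mature sensory neurons, had mean levels of 0.0112 ± 0.0223 CPM in WT and 0.0477 ± 0.0564 CPM in TAZG197V hearts. Gnao1 was read in hearts of both genotypes, at 32.4 ± 8.66 and 36.4 ± 23.0 CPM (log2 fold change 0.14, SE 0.115, edgeR adjusted p = 0.371). The mutant value rested on TAZG197V 4, at 70.4 CPM against 20.2 to 29.2 CPM in the other 3. Without both number 4 libraries, which held the most brain marker reads, Gnao1 was called lower (log2 fold change −0.36, edgeR adjusted p = 0.0392), and it was not called in the other 15 alternative fits. Among the other markers of olfactory and vomeronasal neurons, Gng13 (51.6% of its exon bases overlap another gene's) and Cnga2 had mean levels of at most 0.121 CPM in either genotype. Adcy3, the adenylyl cyclase of olfactory neurons, which other tissues express too, read 4.36 ± 1.20 CPM in WT and 3.92 ± 1.18 CPM in mutant hearts and was not called. Gng8 read 0.759 ± 0.456 and 0.390 ± 0.135 CPM and was not called.

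Of 24 genes of vomeronasal signalling, 9 were tested and 2 were called, 1 in each direction, against 33.4% of all tested genes. The median log2 fold change of the 9 was −0.11, beside −0.01 over all tested genes. Ncam1, an adhesion molecule of neurons and of muscle, was higher in TAZG197V hearts at 19.8 ± 12.6 against 7.42 ± 6.67 CPM (log2 fold change 1.47, SE 0.296, edgeR adjusted p = 0.00570). Bcl11b, a transcription factor of basal vomeronasal neurons and of T cells, was lower at 1.16 ± 1.06 against 3.16 ± 2.27 CPM (log2 fold change −1.68, SE 0.211, edgeR adjusted p = 0.000587). Both genes were highest in the library numbered 4 of each genotype, where 10 brain markers summed to 210 CPM (WT 4) and 345 CPM (TAZG197V 4), against 55.7 to 105 CPM elsewhere. Without these 2 libraries Ncam1 was still called (log2 fold change 1.74), and Bcl11b was under the minimum mean count (−1.69), as it was without WT 4 alone. Without surrogate variables neither was called (edgeR adjusted p = 0.113 for Ncam1 and edgeR adjusted p = 0.127 for Bcl11b).

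Of 22 other class C receptors, 7 were tested and 2 were called, both lower. That is 28.6%, against 33.4% of all tested genes called and 15.0% called lower, and the median log2 fold change was −0.16. Gprc5c, an orphan receptor, fell from 8.09 ± 0.829 to 5.34 ± 0.403 CPM (log2 fold change −0.59, SE 0.101, edgeR adjusted p = 0.00266). Gabbr1, a subunit of the GABA-B receptor, had a log2 fold change of −0.40 (SE 0.122, edgeR adjusted p = 0.0333), with the groups overlapping and the number 4 libraries highest. It kept its call in 8 of 16 alternative fits, and in 3 of the 8 that left out 1 library. The call was lost without WT 1, WT 3 or TAZG197V 1, 2 or 3. It was also lost without surrogate variables (log2 fold change −0.21, edgeR adjusted p = 0.722), and with sequencing lane or a replicate block in their place. Without both number 4 libraries Gabbr1 was called, with a log2 fold change of −0.63 (edgeR adjusted p = 0.000628).

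Reads of the genes around the members bear on how far the 2 differences extended along the chromosome. Within 1 Mb either side of the 8 genes lay 55 others, and 12 of them were tested. Of these, 2 were called (16.7%), against 33.4% of all tested genes, and 1 rose and 1 fell. The median log2 fold change of the 12 was −0.01, as over all tested genes. The 43 untested genes included 27 with 0 counts, and 11 Vmn2r pseudogenes among the neighbours held 1 read in all.

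Mme, the gene of neprilysin, a protease that cleaves natriuretic and other peptides, was the nearest tested gene below Gm34302 (chr3:63241537-63386030, plus strand). It read 17.4, 14.4, 17.1 and 12.1 CPM in WT 1 to 4 and 7.16, 5.40, 5.65 and 6.56 CPM in TAZG197V 1 to 4. The genotypes did not overlap, which was also true of 33.2% of all tested genes. Mme fell by 1.29 on the log2 scale (SE 0.151, edgeR adjusted p = 0.000421) and was called in all 16 alternative fits.

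Plch1, the gene of phospholipase C eta 1, was the nearest tested gene on the other side of Gm34302, between it and Vmn2r3 (chr3:63696234-63899472, minus strand). Its counts were 0, 2, 1 and 2 in WT and 43, 67, 100 and 61 in TAZG197V hearts, or 0.0458 ± 0.0371 and 2.21 ± 0.734 CPM. The log2 fold change was 5.43 (SE 0.535, edgeR adjusted p = 0.000179). It passed both p and fold, but its mean scaled count of 32.9 was below 50, so it was not called, in this or any of the 16 alternative fits. Without the minimum, 36.8% of all tested genes passed.

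Slc33a1, the gene of the acetyl-CoA transporter of the endoplasmic reticulum membrane, lay further towards Vmn2r3 (chr3:63933507-63964768, minus strand). It read 10.08, 11.8, 11.5 and 11.2 CPM in WT 1 to 4 and 18.9, 18.7, 15.8 and 16.6 CPM in TAZG197V 1 to 4. Slc33a1 rose by 0.66 on the log2 scale (SE 0.0935, edgeR adjusted p = 0.00103), with no overlap, as for 33.2% of all tested genes. Of its exon bases 32.018% overlap another gene's, and strand handling in counting is not given in the sources used here.

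Gmps, the gene of GMP synthetase and the nearest tested gene to Vmn2r3 on the side of Gm34302, was not called. It read 50.8 ± 1.63 CPM in WT and 55.1 ± 1.71 CPM in TAZG197V hearts (log2 fold change 0.11, SE 0.0535, edgeR adjusted p = 0.152). Kcnab1, a potassium channel beta subunit and the nearest on the far side, read 1.45, 3.46, 1.40 and 1.12 CPM in WT 1 to 4. In TAZG197V 1 to 4 it read 0.908, 1.03, 0.549 and 1.72 CPM, with overlap (log2 fold change −0.54, SE 0.247, edgeR adjusted p = 0.117). The log2 fold change was −1.17 without WT 4 and −1.33 without TAZG197V 4, and −0.27 without TAZG197V 3, with a mean count under the minimum throughout. Ssr3, a subunit of the complex that aids protein entry into the endoplasmic reticulum, had an adjusted p of 0.0256 in edgeR but a log2 fold change of 0.19, short of the fold required. The other 6, Dhx36, E130311K13Rik, 4931440P22Rik, Tiparp, Lekr1 and Gm37776, had log2 fold changes from −0.19 to 0.09 and were not called.

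**Figure D3:**
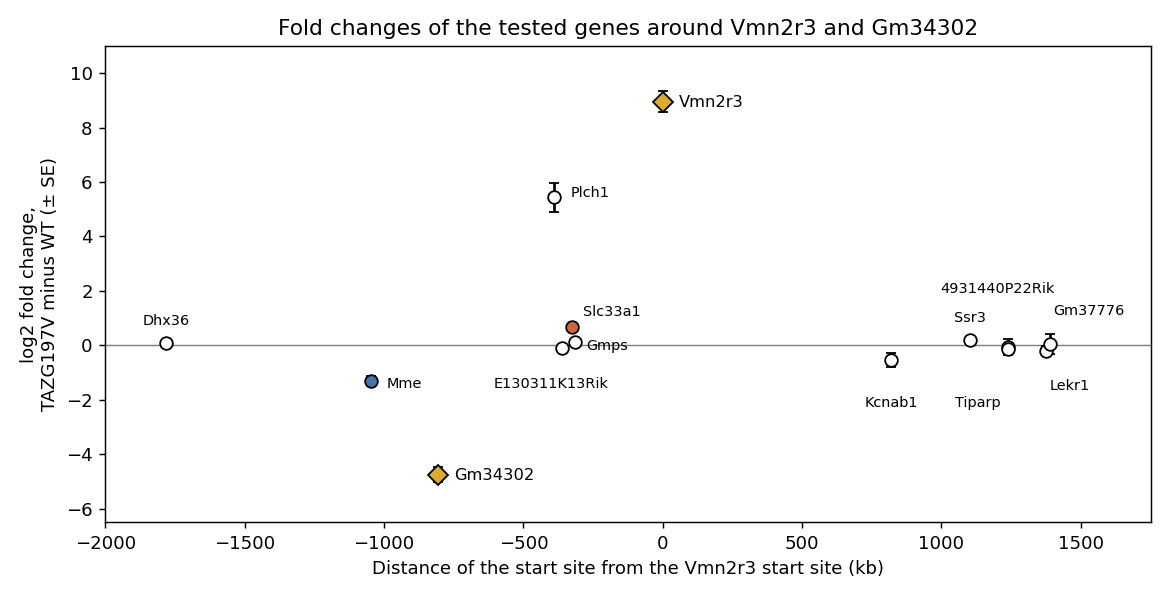
Log2 fold change of TAZG197V minus WT (points, with SE) of Vmn2r3 and Gm34302 (yellow diamonds) and of the 12 tested neighbours, by the distance in kb of their start site from that of Vmn2r3, negative towards lower coordinates. Circles are orange for a called rise, blue for a called fall and open for no call. Vmn2r3 (8.95), Plch1 (5.43) and Gm34302 (−4.75) stand far from 0, and Mme (−1.29) and Slc33a1 (0.66) are the 2 called neighbours.

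**Figure D4:**
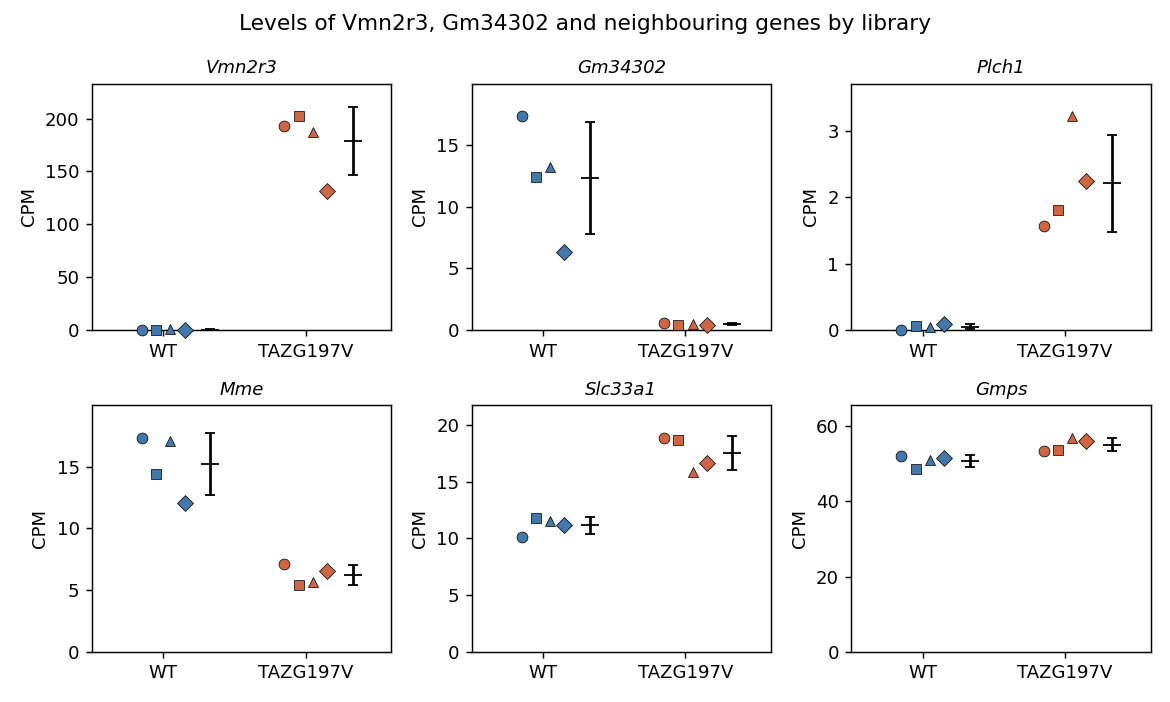
Levels in CPM (linear axes from 0) of Vmn2r3, Gm34302 and 4 neighbours in each library, WT blue and TAZG197V orange, with the replicate number by marker shape (circle 1, square 2, triangle 3, diamond 4); bars are mean and SD, n = 4. Vmn2r3 and Gm34302 were selected on this contrast; of the 12 tested neighbours 5 did not overlap between genotypes, beside 33.2% of all tested genes, and the 4 shown are among these 5, with Gmps (50.8 against 55.1 CPM) not called.

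Gm34302 belongs with the genes of calcium uptake into the sarcoplasmic reticulum, which work beside those of calcium storage and release. Of 21 genes for these steps besides Gm34302, 19 were tested and 8 were called, 7 lower and 1 higher in TAZG197V hearts. That is 42.1%, against 33.4% of all tested genes, and 7 of 19 lower against 15.0%. The median log2 fold change was −0.37. Markers of some cell types were lower as well, but not of all. For cardiomyocytes, 5 markers summed to 47015 to 51702 CPM in WT and 38391 to 42877 CPM in TAZG197V hearts, and 3 were called lower, of which Ryr2 is also on the calcium list. For fibroblasts 2 of 3 markers were called lower, with sums of 691 to 1115 CPM in WT and 459 to 626 CPM in TAZG197V hearts. For endothelial cells it was 2 of 3 as well, with overlapping sums of 502 to 736 and 404 to 527 CPM. Of 3 macrophage markers 0 were called, with overlapping sums of 71.9 to 92.0 CPM in WT and 66.3 to 98.7 CPM in TAZG197V hearts. Of 5 ventricular markers 1 was called lower, also with overlapping sums. In bulk tissue fewer cells of a type and less RNA per cell cannot be told apart, and the part of these markers in the list's counts was not tested.

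The pump itself, Atp2a2 (SERCA2), fell from 14414 ± 486 to 10937 ± 394 CPM (log2 fold change −0.41, SE 0.0803, edgeR adjusted p = 0.00498). Its inhibitor Pln fell from 1645 ± 125 to 1034 ± 41.0 CPM (log2 fold change −0.66, SE 0.0795, edgeR adjusted p = 0.000481), though 64.7% of its exon bases overlap another gene's. Hrc, the histidine-rich calcium-binding protein of the reticulum, went down from 1262 ± 98.2 to 500 ± 81.0 CPM (log2 fold change −1.36, SE 0.106, edgeR adjusted p = 5.9e-05). On the release side, the calcium channel Ryr2 (log2 fold change −0.45), its partner triadin (Trdn, −0.35) and junctophilin 2 (Jph2, −0.37) were lower. Ryr2 lost its call in 3 of 16 alternative fits, without WT 1, without TAZG197V 4 and without both number 4 libraries (log2 fold change −0.38 in the last). Prkaca, a catalytic subunit of protein kinase A, which phosphorylates phospholamban, was lower as well (−0.48).

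Hax1, whose protein binds phospholamban, rose from 5.99 ± 0.448 to 15.2 ± 1.45 CPM (log2 fold change 1.35, SE 0.0961, edgeR adjusted p = 3.8e-05). Of the other small pump regulators, 1810037I17Rik (another-regulin) read 17.9 ± 2.02 and 17.5 ± 2.68 CPM and was not called. Myoregulin (Mrln) read 0.610 ± 0.168 and 0.210 ± 0.134 CPM, under the minimum mean count. Sarcolipin (Sln), an atrial peptide, read 86.6 CPM in WT 2, 9.81 CPM in WT 1 and at most 0.223 CPM in the 6 other libraries, and was not tested. WT 2 was also the library with the highest atrial marker sum, 971 CPM against 13.5 to 89.0 CPM in the other WT hearts and 6.45 to 7.65 CPM in TAZG197V hearts.

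The log2 fold change of Gm34302 (−4.75) lay further from 0 than those of the 8 called calcium genes, a difference not tested because Gm34302 was selected on it. As a percentage of the Pln value of the same library, in CPM and not scaled by length, Gm34302 was 0.955, 0.757, 0.818 and 0.417% in WT 1 to 4. In TAZG197V hearts it was 0.0547, 0.0416, 0.0430 and 0.0350%. Since Gm34302 was selected on its fall, nothing is read from the lack of overlap in this ratio. Per kb of exon, Gm34302 in WT hearts read 50.6 CPM, against 596 for Pln and 2370 for Atp2a2. Among WT hearts, WT 4 had the lowest Gm34302 and also the lowest sum of 5 ventricular markers, 9915 CPM against 12681 to 15563 CPM. In TAZG197V hearts these markers summed to 10388 to 11957 CPM, and their part in the difference was not tested.

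**Figure D5:**
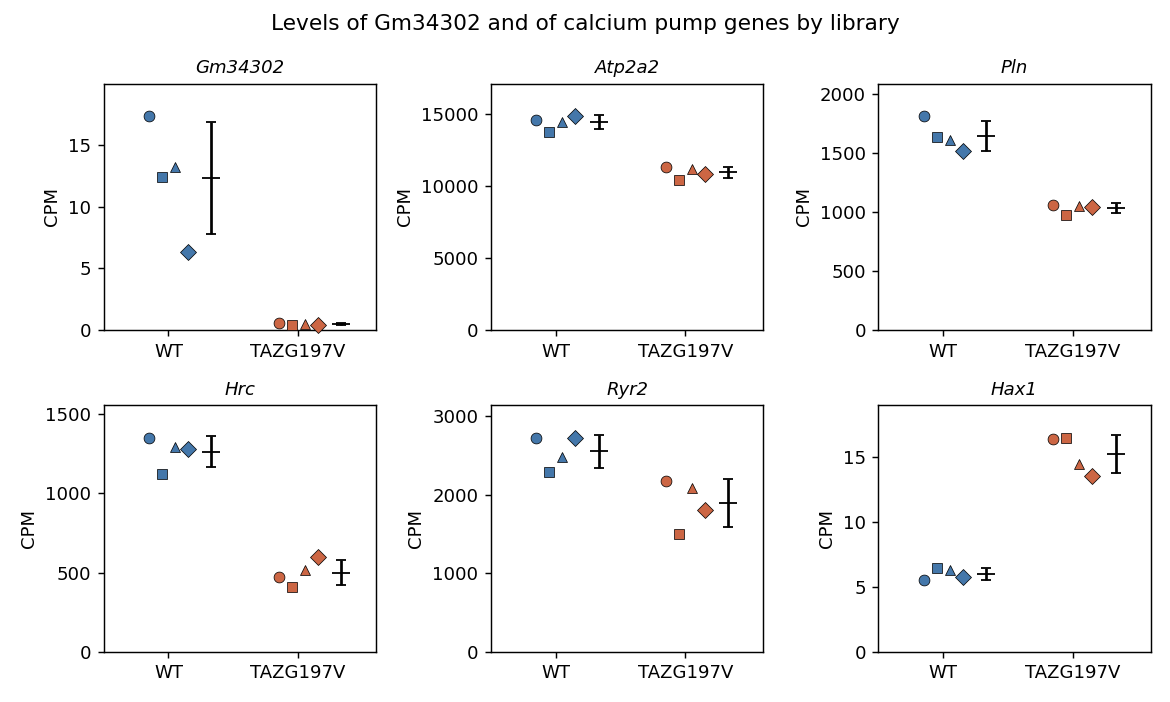
Levels in CPM (linear axes from 0) of Gm34302 and of 5 genes of calcium handling in each library, WT blue and TAZG197V orange, with the replicate number by marker shape (circle 1, square 2, triangle 3, diamond 4); bars are mean and SD, n = 4. Gm34302 drops from 12.3 to 0.451 CPM, Atp2a2 from 14414 to 10937 and Hrc from 1262 to 500, while Hax1 goes from 5.99 to 15.2.

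Some genes followed the 2 leading members closely across the 8 libraries. By Pearson's r of log2 CPM, Vmn2r3 was most like Adm2 (0.998), Nudt16 (0.996), Ostn (0.994), Uts2b (0.994) and 2010204K13Rik (0.993). Gm34302 was most like D830024N08Rik (0.997), Tmod4 (0.997), Eml1 (0.997), Clcn1 (0.996) and Gdpd5 (0.995). Such values are set largely by the 2 genotypes that all points share, and 637 and 279 genes exceeded 0.95. After each genotype's mean was removed, r was 0.820 to 0.979 for the genes named beside Vmn2r3. For those beside Gm34302 it was 0.869 to 0.927. Both sets were picked on these same libraries. Clcn1, the chloride channel of skeletal muscle, read 17.8, 14.1, 11.0 and 7.86 CPM in WT 1 to 4 and 0.581 to 1.02 CPM in TAZG197V hearts. Its order among WT hearts was close to that of Gm34302, lowest in WT 4. This is no separate observation, since Clcn1 was named for its correlation with Gm34302 over these libraries. Between Vmn2r3 and Gm34302, r was −0.961 over the 8 libraries and 0.122 after each genotype's mean was removed.

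A promoter window was matched for 7 of the 8 genes in RefSeq, from 250 bases before to 50 after the start. That of Gm34302 is shown because its reads fell (chr3:63483857-63484156, minus strand, GRCm38.p6). Capitals mark the E-box letters CANNTG.

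Gm34302 promoter window: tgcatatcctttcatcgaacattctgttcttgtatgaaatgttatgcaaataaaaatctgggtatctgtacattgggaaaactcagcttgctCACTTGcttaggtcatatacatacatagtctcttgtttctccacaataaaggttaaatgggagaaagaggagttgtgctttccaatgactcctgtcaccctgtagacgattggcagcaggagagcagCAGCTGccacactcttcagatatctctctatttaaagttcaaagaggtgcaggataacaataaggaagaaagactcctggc

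It held 2 E-boxes, as CANNTG occurs in 72.3% of 32851 windows of this length. Letters of the MEF2 element (in 3.69% of windows), of the composite element core TGATGNAA (3.97%), of the cAMP response element TGACGTCA (1.79%) and of the TATA box core TATAAA (13.6%) were searched on both strands, and none was in this window or in that of Vmn2r3. The RefSeq start of Vmn2r3 lay 2292 bases downstream of the GENCODE start, so its window fell inside an annotated exon and is not shown. Vmn2r5 had no entry.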

How the data were processed

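Heart RNA from 4 WT and 4 TAZG197V mice was sequenced as 50-base single-end reads. The authors, as their notes and methods state, used bcl2fastq 2.20.0, FastQC 0.11.9, STAR 2.7.3a on mm10 with up to 2 mismatches, and featureCounts (Subread 2.0.0). The deposited values are whole-number counts of reads per gene, not normalized. The annotation release, strand setting and treatment of reads with several matches are not given in the sources used here. The files also held 92 spike-in rows, all at 0, left out here.

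Gene IDs were matched to GENCODE M21 symbols (55230 of 55471). Counts were fitted across 15084 genes with edgeR 4.0.16 (TMM, filterByExpr, quasi-likelihood test, two-sided, Benjamini-Hochberg adjustment) and 2 surrogate variables from svaseq (sva 3.50.0), in R 4.3.3. CPM use TMM-scaled library sizes; SE is the fold change over the root of F. The members and gene lists were chosen with earlier results of these data known. Named genes were the members, called and nearest tested neighbours, up to 3 called members of each list and those whose role is explained, and the 5 genes most like Vmn2r3 and Gm34302. Where more members of a list are named, they were added after their values were seen. Mice are the replicates, and library pairs of a genotype differed by more than counting noise (chi-square per gene from 10.2). Alternatives covered tool, scaling, filter, covariates, fold limit and libraries left out; lanes come from the deposited files. Sequences were compared over GENCODE M21 transcripts, aligned with mafft, and promoters are RefSeq's. The depth of 23055689 to 36301031 counts sets a floor of 3 counts per library.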

Additional observations from a re-analysis of the deposited data

Results flagged for a closer look

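Among 98 sets of 4 libraries examined, 16 had a library far from the other 3 by Dixon's gap ratio. For independent sets of normally distributed values, chance gives about 1 set in 20 (4.9 of 98). Some sets here held few reads and some shared genes, as Sln is also in the atrial sum, so 4.9 is only a rough guide. Of the 16, 8 were single genes. Kcnab1, the nearest tested gene above Vmn2r3, was highest in WT 2 (ratio 0.8558), as was Sln (0.8872). In WT 4, Vmn2r97 (0.9108), Bcl11b (0.8292), Gabbr1 (0.8799) and Omp (1, on 1 read) were highest, and in TAZG197V 4 Ncam1 (0.8817) and Gabbr1 (0.9635). The other 8 were sums of cell type markers. Atrial markers stood out in WT 2 (0.9212) and, at a low level, in TAZG197V 3 (0.8341). Red cell markers stood out in WT 4 (0.9869), at 55072 CPM. Brain markers stood out in both number 4 libraries (0.9502 in WT 4 and 0.9459 in TAZG197V 4). Fibroblast markers were highest in WT 2 (0.8973), and adipocyte markers in WT 2 (0.8518) and in TAZG197V 4 (0.958). Neither Vmn2r3 nor Gm34302 had a library so far from its group. Without both number 4 libraries, the log2 fold change was 9.09 for Vmn2r3 and −4.91 for Gm34302.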

How the results depend on the processing

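Vmn2r3 stayed higher and Gm34302 lower in all 17 alternatives, from 7.73 to 10.599 and from −4.97 to −3.75 on the log2 scale. Leaving out 1 library gave 8.40 to 10.599 and −4.97 to −4.52, and the ratio of means with 0.5 CPM added gave −3.75 for Gm34302. Called genes numbered 1831 with a fold limit of 1.5, and 3666 to 4814 with a library left out. At that fold limit 3 calcium genes and 1 class C receptor were called. Without surrogate variables, and with lane in their place, 0 vomeronasal signalling genes and 1 class C receptor were called; 3 of the 9 had an unadjusted edgeR p below 0.05 in either. DESeq2, run only with surrogate variables, called 2. With a library left out, 1 to 2 class C receptors, 2 to 3 vomeronasal signalling genes and 7 to 9 calcium genes were called, and interval calls were 2 to 3. The causes were not tested. Uncalled neighbours changed sign: Gm37776 was −0.053 by DESeq2 and ran from −0.18 to 0.78 with a library left out, 4931440P22Rik from −0.30 to 0.18 (0.11 without both number 4 libraries) and E130311K13Rik from −0.16 to 0.024. Kcnab1 passed the p threshold without WT 4, TAZG197V 4 or both. Same-numbered libraries also shared a lane, but were not taken as pairs (correlations of deviations from 0.0436 to 0.416); a replicate block in place of surrogate variables gave 4272 called genes. WT counts of 1 to 26 limit the fold of Vmn2r3.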

Other observations

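The few WT reads of Vmn2r3 were unevenly spread, with the most in WT 3. The 10 genes with the highest log2 fold changes were looked at beside it, chosen after their values were seen. Of the 9 other than Vmn2r3, 5 were also highest among WT hearts in WT 3, on 4 to 8 reads each, and 3 were highest in WT 1 or WT 2. Fut1 had 0 reads in every WT heart, and Mei4 and Gm5702 had 0 in WT 3. As a percentage of the mutant mean, WT 3 was at 0.565% for Vmn2r3, 0.455% for Ostn, 0.760% for Soat2, the gene of sterol O-acyltransferase 2, 1.09% for Adm2, 1.37% for Akr1b7 and 1.78% for Fgf21, the gene of fibroblast growth factor 21. Soat2 was nearly as high in WT 4, at 0.655%, and Fam227b was at 0.676% in WT 3 but 1.77% in WT 1. The median over the 10 genes, Vmn2r3 included, was 0.621% in WT 3, 0.0961% in WT 2, 0.0744% in WT 1 and 0 in WT 4.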
